A study of Mus musculus with 2 samples.

Results

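Genes of the matrix metalloproteinases (Mmp), their relatives with thrombospondin repeats (Adamts), the Adamts-like proteins that lack a protease domain (Adamtsl) and the tissue inhibitors of metalloproteinases (Timp) were described by their chromatin accessibility in mouse heart. They were taken by symbol from the protein-coding genes of GENCODE M21, as a family prefix followed by a number and an optional letter. The rule gave 50 of 21911 genes, made up of 22 Mmp, 19 Adamts, 5 Adamtsl and 4 Timp genes. Mmp1a, annotated there as a polymorphic pseudogene, is not among them. DNase-seq, which reads where the enzyme DNase I cleaves nuclear DNA and so marks accessible chromatin, was done on heart tissue of B6CASTF1/J males aged 14 days, a first-generation cross of the C57BL/6J and CAST/EiJ strains. All samples form 1 group of 2 biological replicates, so nothing was compared between conditions. By its label, replicate 1 came from 3 males, while the other label gives no animal count and neither says if hearts were combined.

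The heart muscle sits in a matrix of collagens, elastic fibres and proteoglycans that is laid down and cut back as the organ grows. Mmp enzymes cleave collagens, basement membranes and many other proteins once their propeptide is removed, and Timp proteins block them by filling the active site. Adamts enzymes trim procollagen, cut proteoglycans such as versican and aggrecan, or act on the fibrillin microfibrils to which Adamtsl proteins also bind.

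The authors deposited 143122 peaks in replicate 1 and 125118 in replicate 2 in the larger of the deposited sets, each with a depth-scaled signal whose exact scaling is not stated. The median signal over all peaks was 0.780 in replicate 1 and 0.728 in replicate 2. The depth behind a peak is unknown, as no read totals came with these lists. Footprints, short stretches usually inside accessible DNA that are protected from cleavage, numbered 350009 in replicate 1 and 335568 in replicate 2. Of these, 88.7% in replicate 1 and 87.1% in replicate 2 lay in peaks. In a tissue sample, an open site in few nuclei and a weakly open site in many cannot be told apart. All 7 cardiomyocyte, 5 fibroblast, 4 endothelial and 4 smooth muscle and pericyte markers had a promoter peak in both replicates, against 1 of 4 leukocyte, 0 of 3 hepatocyte and 0 of 3 skeletal muscle markers. The skeletal muscle genes without a peak were Myh1, Myh2 and Atp2a1, and the leukocyte genes without one were Ptprc and Csf1r. The leukocyte gene Itgam had one in replicate 1 alone and Cd68 had one in both. All 4 chondrocyte markers, Col2a1, Sox9, Acan and Matn3, also had a promoter peak in both replicates, at 0.397 and 0.472 for Col2a1 and 0.241 and 0.227 for Acan.

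A promoter was counted as open where a peak lay within 1 kb of any annotated start of the gene in both replicates. By that rule 39 of 50 members were open, or 78.0%, against 68.8% of all protein-coding genes. The family groups differed: all 5 Adamtsl and all 4 Timp genes were open, with 17 of 19 Adamts genes (89.5%) and 13 of 22 Mmp genes (59.1%). In neither replicate did 10 members have a promoter peak, against 28.3% of all genes. Of those 10, 8 were Mmp genes of a cluster on chromosome 9, and the others were Adamts13 and Adamts16. Mmp21, known for its part in left-right patterning of the heart, had a weak promoter peak of 0.496 in replicate 1 alone, a state shared by 2.90% of all genes counting either replicate. Outside that cluster 38 of 41 members were open, or 92.7%, and 12 of 13 Mmp genes were.

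Open members were mostly of moderate height. Among the 39 open members the median promoter signal was 3.49 in replicate 1 and 3.36 in replicate 2, against 7.07 and 6.11 among all open genes. Each gene was also given a percentile of its promoter signal among the 21911 genes of the same replicate, where a gene with no peak sits at 14.8 in replicate 1 and 15.0 in replicate 2. The median percentile was 60.3 ± 0.11 for Adamtsl, 53.9 ± 2.74 for Timp, 51.9 ± 0.82 for Adamts and 36.9 ± 1.04 for Mmp genes. The ± is the SD over 2 replicates, and all genes stood at 50. The 13 Mmp genes outside the chromosome 9 cluster had a median percentile of 49.8 ± 1.47. The ratio of replicate 1 to replicate 2 over the open members had a median of 0.10 on the log2 scale, with 28 of 39 higher in replicate 1. It ranged from -0.352 to 0.697, with an SD over these members of 0.258. Over all regions with a peak in each replicate the median ratio was 0.31. Only 26.9% of those lay at promoters, so the 2 medians are not like for like.

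**Figure D1:**
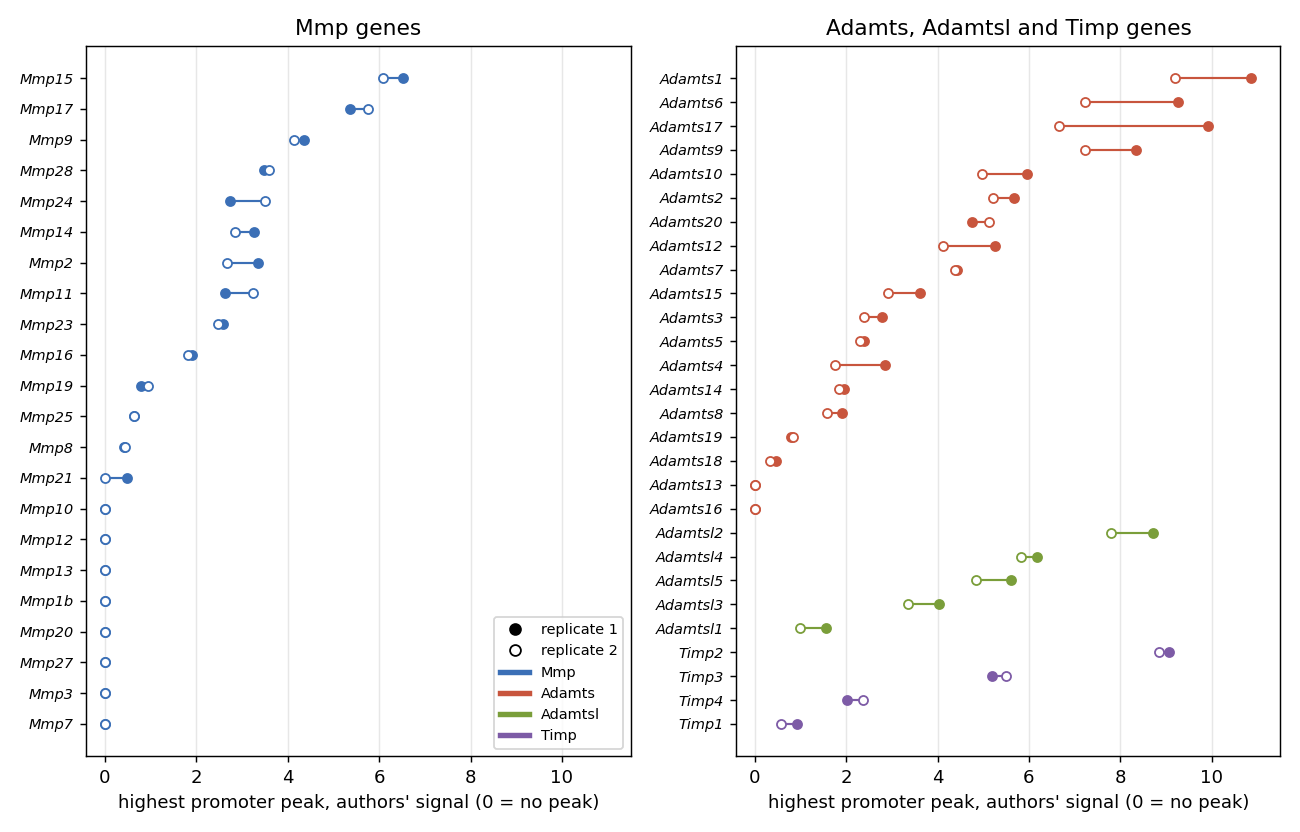
Highest promoter peak of each of the 50 members (authors' depth-scaled signal, linear axis; 0 means no peak) in replicate 1 (filled) and replicate 2 (open circles), joined by a line. The Adamts1, Timp2 and Adamtsl2 promoters reached 7.79 or more in both replicates, while 8 Mmp genes of the chromosome 9 cluster sit at 0.

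Among the Mmp genes, the enzyme classes differed in how many were open, beside 68.8% of all genes. The membrane-type enzymes, which are anchored at the cell surface, were all open (6 of 6, or 5 in the upper 50% of peaks, where Mmp25 was lost). Both gelatinases were open, while 1 of 3 collagenases, 1 of 3 stromelysins and 3 of 8 other Mmp genes were. All 3 collagenases and the stromelysins Mmp3 and Mmp10 lie in the chromosome 9 cluster, which holds no membrane-type enzyme or gelatinase. Outside that cluster 12 of 13 Mmp genes were open, so class and cluster cannot be told apart here. Mmp15 had the highest Mmp promoter, at 6.52 in replicate 1 and 6.08 in replicate 2, followed by Mmp17 at 5.36 and 5.77. Both encode membrane-type enzymes. Mmp14, the membrane-type enzyme that activates pro-Mmp2 at the cell surface, had 3.26 and 2.84, and Mmp24 had 2.74 and 3.50. These lay above Mmp16 at 1.91 and 1.81 and Mmp25 at 0.638 and 0.651, with no overlap between replicates of the higher and the lower pair.

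The gelatinases, which cut denatured collagen and basement membrane collagen, differed in where they were open. Mmp2 had 3.36 in replicate 1 and 2.67 in replicate 2 at its 5′ end. Mmp9 had 4.37 and 4.14, but the middle of that peak lay 12670 bases inside the gene and 936 bases before an internal annotated start. No peak lay within 1 kb of the 5′ end of Mmp9 in either replicate, so the gene counts as open only through that internal start. Of the remaining open Mmp genes, Mmp28 (epilysin) had 3.49 and 3.59, Mmp23 had 2.58 and 2.47, and Mmp19 had 0.801 and 0.943. Mmp11, the stromelysin that furin activates inside the cell, had 2.63 and 3.24 at a start 3986 bases inside the gene. That peak also touched the promoter of Chchd10, which overlaps Mmp11, and cannot be assigned to either gene. At its 5′ end alone Mmp11 had 2.28 and 1.65, and none of its promoter peaks lay at the promoter of 1 gene alone.

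The Adamts genes held the highest promoter among all members. Adamts1, which cleaves versican and aggrecan, had 10.9 in replicate 1 and 9.19 in replicate 2, at percentiles 77.9 and 78.4. All 7 genes of the proteoglycan-cleaving group were open, from Adamts1 down to Adamts8 at 1.90 and 1.58, or 6 with peaks at the promoter of 1 gene alone, where Adamts4 was lost. Adamts9, also a versicanase, had 8.33 and 7.23, and Adamts5, known as an aggrecanase, had 2.40 and 2.31. Adamts15 had 3.62 and 2.92. Adamts20, linked to pigment cell development in mice, had 4.74 and 5.11 at a start 61028 bases inside the gene, with no peak at its 5′ end in either replicate.

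All 3 procollagen N-proteinases, which remove the amino-terminal propeptide of fibrillar procollagens, were open. Adamts2 had 5.67 and 5.20, Adamts3 had 2.79 and 2.39 and Adamts14 had 1.95 and 1.84, an order that held in each replicate without overlap. The highest Adamts14 peak was at a different place in each replicate. Of the other 9 Adamts genes 7 were open. Adamts6 had 9.27 in replicate 1 and 7.23 in replicate 2 at a peak 775 bases before its 5′ end, and a mean of 0.646 within 500 bases of its starts. Its relative Adamts10, which acts on fibrillin microfibrils, had 5.95 and 4.97. Adamts17 had 9.91 and 6.65, and Adamts19 had 0.787 and 0.830, the last from a different peak in each replicate. Adamts6 and Adamts17 overlapped across replicates, so their order is not resolved. Adamts12 had 5.26 and 4.12, Adamts7 had 4.43 and 4.37 and Adamts18 had 0.468 and 0.334. Adamts13, which cuts von Willebrand factor, and Adamts16 had no promoter peak and no promoter base with a false discovery rate under 0.05 in either replicate. Adamts16 nevertheless had a peak of 2.84 in replicate 1 and 1.86 in replicate 2 in an intron, 1450 bases from its 5′ end and so just outside the window.

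Among the Adamtsl genes, Adamtsl2 was highest. It encodes a protein that binds microfibrils and is linked in humans to geleophysic dysplasia, and it had 8.70 and 7.79. Adamtsl4 followed at 6.18 and 5.82 and Adamtsl5 at 5.61 and 4.83. The Adamtsl5 peak lay at an annotated start 8162 bases inside the gene. For Adamtsl4 the highest peak was at a start 10977 bases inside the gene in replicate 1 and at the 5′ end in replicate 2. Adamtsl3 had 4.04 and 3.36, and Adamtsl1, the longest member, had 1.55 and 0.991. The Adamtsl1 values came from a different peak in each replicate.

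The 4 inhibitors spread widely, and in the upper 50% of peaks Timp1 was no longer open. Timp2, which both blocks metalloproteinases and helps Mmp14 to activate pro-Mmp2, had 9.06 and 8.85. Timp3, which is bound to the matrix and also blocks several Adamts enzymes, had 5.18 and 5.50. Timp4, known for its high level in heart, had 2.01 and 2.36, and Timp1 had 0.922 and 0.579. The order Timp2, Timp3, Timp4 and Timp1 held with no overlap of replicates. Timp1, Timp3 and Timp4 lie within Syn1, Syn3 and Syn2, genes of synaptic vesicle proteins. The Timp4 peak also touched a Syn2 promoter, and DNase cleavage carries no strand by which to assign it.

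Base composition of the 5′ ends varied with these states. In the 1 kb around the 5′ end, open members had a median of 51 CpG dinucleotides, against 5.5 in the members with no peak. Over all genes the medians were 58 for open genes and 7 for genes with no peak. Of the members with over 20 CpG, 32 of 33 were open (97.0%), against 92.1% of all such genes. Of those with 20 or fewer, 7 of 17 were open (41.2%), against 26.98% of all such genes. This limit of 20 was chosen after the values were seen. The exception with over 20 CpG was Adamts16, with 28. Adamtsl2 was open at its 5′ end with 16. Mmp9, with 14, and Adamts20, with 29, count as open through internal starts and not at the 5′ ends where CpG was counted. The highest peaks of some others, such as Mmp11 and Adamtsl5, also lay far inside the gene, though these were open at the 5′ end too. Whether CpG content plays a part in these states was not tested.

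**Figure D2:**
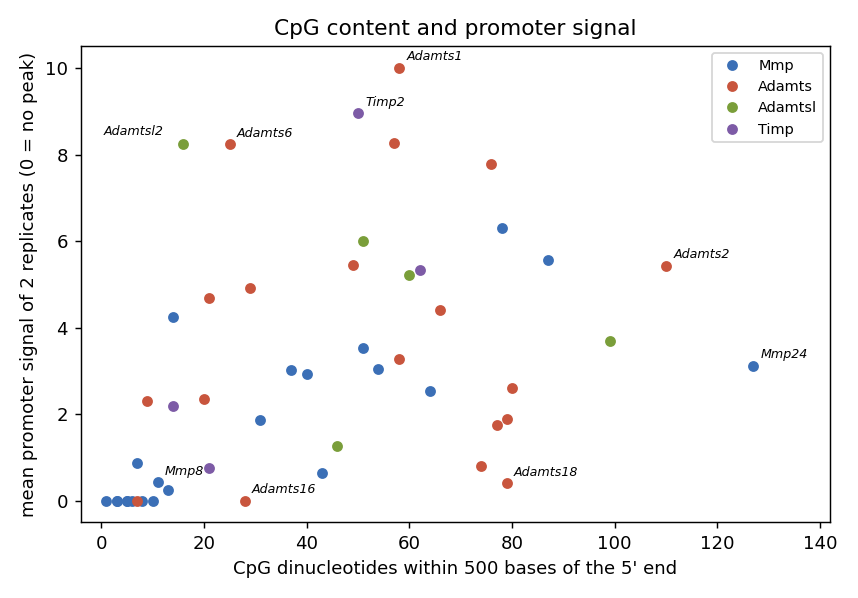
CpG dinucleotides within 500 bases of the annotated 5′ end (x axis) against the mean promoter signal of both replicates (y axis, 0 means no peak), 1 point per member, coloured by group. The signal is the highest at any annotated start. The points at 0 with 1 to 10 CpG are the 8 closed Mmp genes and Adamts13, and high points such as Adamtsl2 occur at low CpG counts too.

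The largest cluster of members, found by joining members less than 100 kb apart, held 9 Mmp genes at chr9:7272514-7699585. In order these were Mmp13, Mmp12, Mmp1b, Mmp3, Mmp10, Mmp8, Mmp27, Mmp20 and Mmp7, with no other protein-coding gene between them. They include all 3 collagenases, the stromelysins Mmp3 and Mmp10, the macrophage elastase Mmp12, the matrilysin Mmp7 and the enamel protease Mmp20. Mmp8, the neutrophil collagenase, was the only cluster gene with a promoter peak in both replicates, a weak one of 0.411 and 0.454, centred 349 bases past its start. The other 8 had no promoter peak and no promoter base with a false discovery rate under 0.05 in either replicate, and none of the 9 promoters held a footprint in both replicates at the same place. The 427 kb cluster held 7 shared regions, merged stretches with a peak in each replicate. That is 1.64 per 100 kb, against 4.66 for the whole of chromosome 9 and 3.82 for the whole genome. The strongest, at chr9:7595341-7595520 between Mmp27 and Mmp20, had 5.19 in replicate 1 and 2.83 in replicate 2. The CpG count in the cluster was 1 to 11 per gene, with a median of 5, against a median of 41 over all genes.

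Promoter sequences from RefSeq (GRCm38.p6, the assembly of mm10) set the cluster apart from the other members with a sequence in a second way. Sequence from 250 bases before to 50 bases after the start was held for 35 of 50 members, all 9 of the cluster among them. The AP-1 consensus TGACTCA, bound by Fos and Jun dimers and long known from Mmp promoters, was found on either strand in 6 of 9 cluster genes, in 0 of 26 other members and in 5.40% of 16522 genes in the table. Those 6 were Mmp13, Mmp12, Mmp1b, Mmp3, Mmp10 and Mmp7. Members with no sequence held, among them Mmp2, Mmp9, Mmp16, Mmp17 and Mmp19, were not searched here. Of these, Mmp19 had an AP-1 match at a footprint close to a start, as given further below. The consensus GGGCGG of the SP factors, common in CpG-rich promoters, showed the opposite: 0 of 9 cluster genes, 22 of 26 other members (84.6%) and 51.0% of all. The lines below give the 120 bases before the start of 5 cluster genes, with the AP-1 match in capitals. The Mmp12 match lies outside this stretch.
Mmp13, chr9:7272394-7272513, plus strand: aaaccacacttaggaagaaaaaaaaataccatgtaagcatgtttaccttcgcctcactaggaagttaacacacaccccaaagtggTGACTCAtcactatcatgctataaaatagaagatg
Mmp1b, chr9:7388027-7388146, minus strand: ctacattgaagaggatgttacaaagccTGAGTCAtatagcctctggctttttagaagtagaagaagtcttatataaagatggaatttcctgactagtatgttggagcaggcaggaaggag
Mmp3, chr9:7445702-7445821, plus strand: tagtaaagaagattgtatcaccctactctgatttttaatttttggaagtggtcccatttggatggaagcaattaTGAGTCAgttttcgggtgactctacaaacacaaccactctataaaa
Mmp10, chr9:7502222-7502341, plus strand: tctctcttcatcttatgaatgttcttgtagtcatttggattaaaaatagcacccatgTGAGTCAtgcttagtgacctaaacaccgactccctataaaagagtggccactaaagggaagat
Mmp7, chr9:7691970-7692089, plus strand: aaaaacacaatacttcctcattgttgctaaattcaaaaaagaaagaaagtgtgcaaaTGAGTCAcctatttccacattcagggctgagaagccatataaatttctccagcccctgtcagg
The first base of these matches stood 35 bases before the start in Mmp13, 46 in Mmp3, 63 in both Mmp10 and Mmp7 and 93 in Mmp1b. All 5 promoters had no peak in either replicate. For contrast, the same stretch is given for the member with the highest promoter of each of the 4 groups, with SP matches in capitals.
Mmp15, chr8:95352176-95352295, plus strand: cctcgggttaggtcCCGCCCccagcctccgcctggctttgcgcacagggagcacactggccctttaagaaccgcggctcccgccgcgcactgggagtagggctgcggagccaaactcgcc
Adamts1, chr16:85803114-85803233, minus strand: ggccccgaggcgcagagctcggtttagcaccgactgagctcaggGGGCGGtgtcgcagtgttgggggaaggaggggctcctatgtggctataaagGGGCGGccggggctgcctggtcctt
Adamtsl2, chr2:27079259-27079378, plus strand: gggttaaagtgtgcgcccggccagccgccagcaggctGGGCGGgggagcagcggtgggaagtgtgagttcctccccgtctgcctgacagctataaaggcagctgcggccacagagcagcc
Timp2, chr11:118355412-118355531, minus strand: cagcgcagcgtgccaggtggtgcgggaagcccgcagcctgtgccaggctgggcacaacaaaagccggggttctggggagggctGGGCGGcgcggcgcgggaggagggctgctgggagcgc
Adamts1 carried a pair of SP matches, starting 76 and 25 bases before the start, and had the highest promoter signal of any member. SP matches from 250 bases before to 50 bases after the start were not limited to high promoters. Adamts13, with no promoter peak, had one, as did Adamts18 (0.468 and 0.334), Mmp25 (0.638 and 0.651) and Timp1 (0.922 and 0.579). Whether SP matches bear on promoter signal was not tested. Adamtsl2 reached 8.70 and 7.79 with 1 SP match in this stretch and 16 CpG in the 1 kb. The ETS consensus AGGAAG occurred in 6 of 9 cluster genes, 8 of 26 other members and 37.6% of all, and the RUNX consensus TGTGGT in 4 of 9, 2 of 26 and 17.0%. GATA matches (AGATAA) occurred in 2 of 9, 1 of 26 and 10.99%, and TEAD matches (GGAATG) in 0 of 9, 2 of 26 and 15.2%. No member had the MEF2 consensus, which 0.575% of all genes had. A match is a run of letters and not evidence of binding, and the cluster genes are related copies, so their promoters are not independent.

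**Figure D3:**
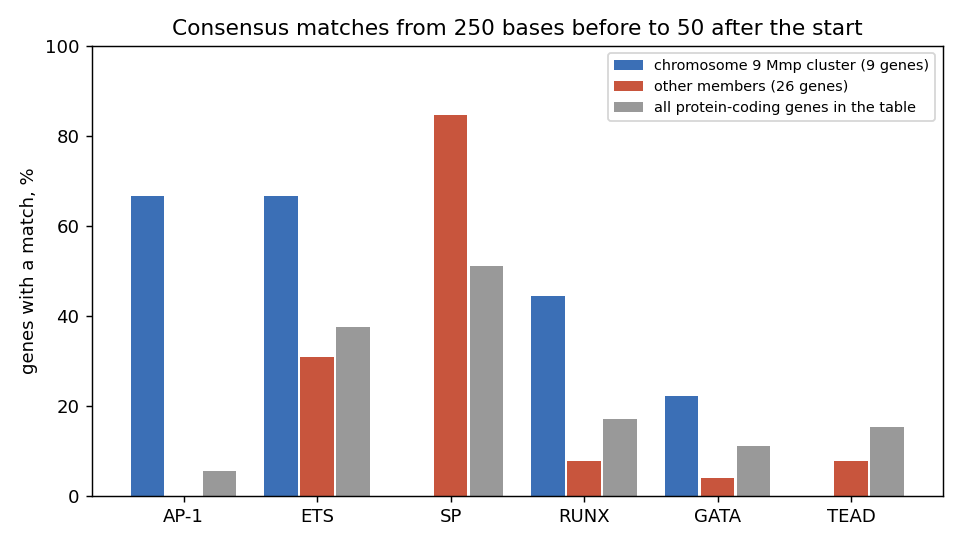
Share of genes (y axis, %) with a consensus match on either strand from 250 bases before to 50 after the RefSeq start, for the 9 genes of the chromosome 9 Mmp cluster, 26 other members and all 16522 genes in the table. AP-1 matches stand at 66.7% in the cluster and 0% in the 26 other members with a sequence held, and SP matches at 0% and 84.6%.

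The other clusters were pairs. Adamts1 and Adamts5, at chr16:85793827-85901828, were both open. This 108 kb stretch held 16 shared regions, which crowded at the 5′ end of each gene. Around the start of Adamts1 the promoter peak of 10.9 and 9.19 had a neighbour of 8.22 in replicate 1 and 5.63 in replicate 2 inside the gene, 2232 bases from its 5′ end. Adamts15 and Adamts8, head to head at chr9:30899155-30963838, were both open and held 13 shared regions in 64.7 kb, or 20.1 per 100 kb. They share chromosome 9 with the Mmp cluster, where the density was 1.64. Adamts13 and Adamtsl2, at chr2:26973416-27108981, had 1 open promoter of 2, that of Adamtsl2, and 19 shared regions, with Cacfd1, Slc2a6 and Mymk between them.

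**Figure D4:**
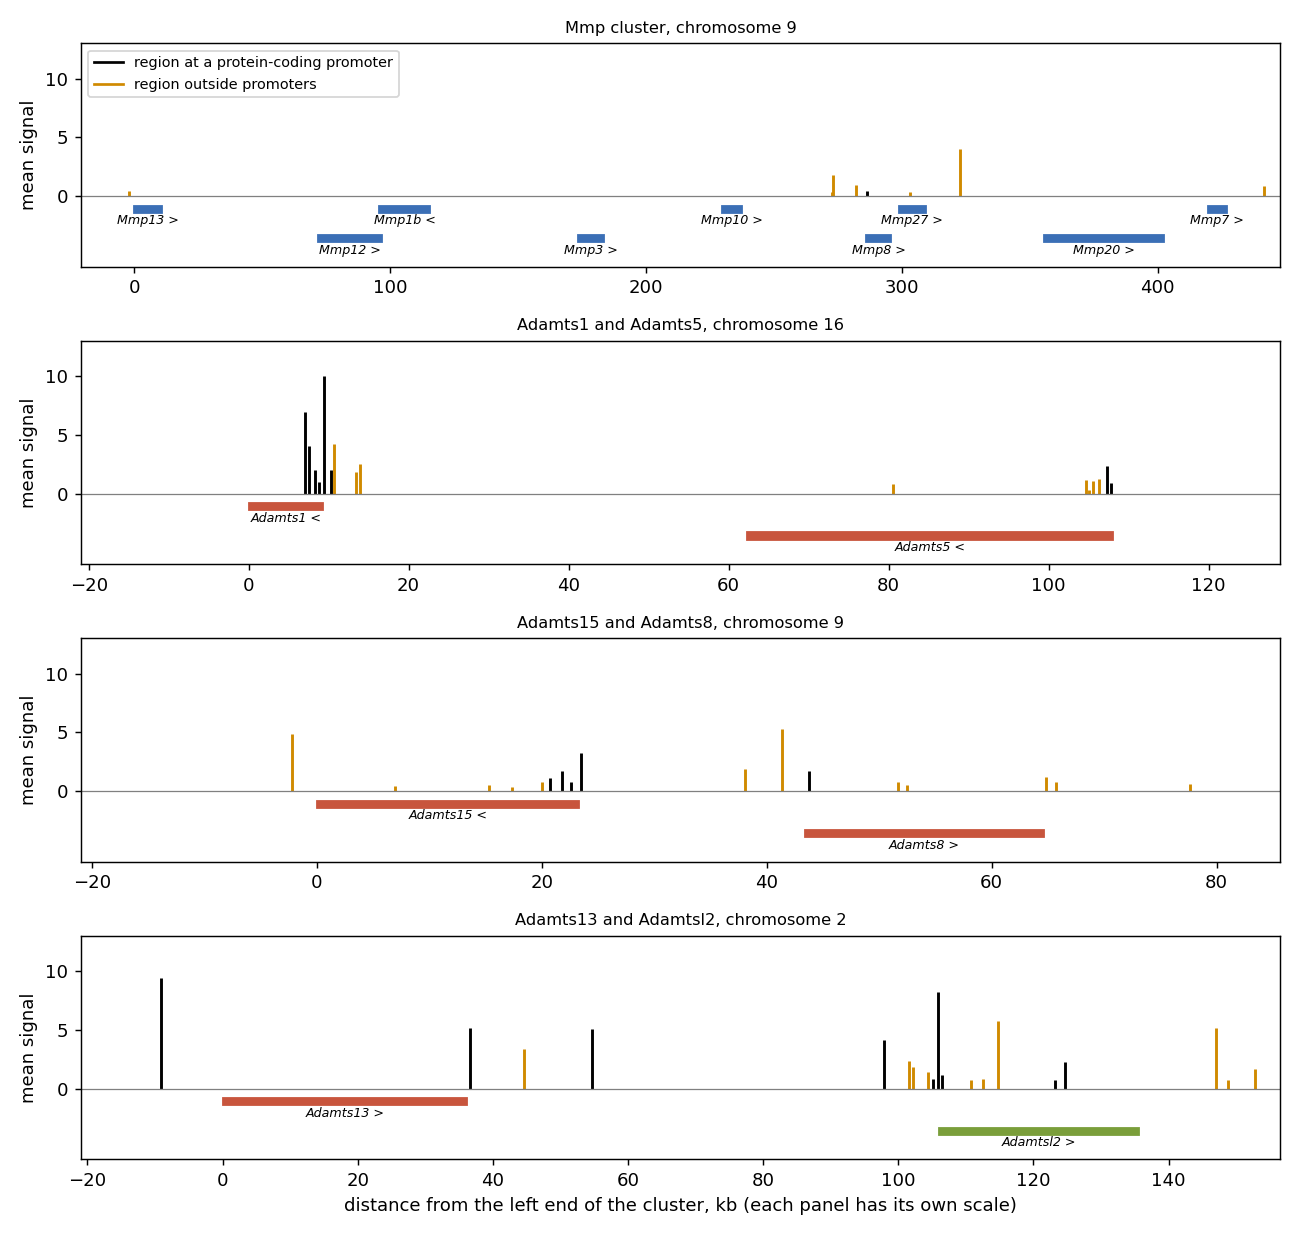
Shared regions (vertical lines, height is the mean signal of both replicates) within 20 kb of a member, and member genes (boxes, > and < give the strand) in the 4 clusters, by distance in kb from the left end of each cluster. The Mmp cluster has long stretches with no region and 1 region above a mean of 4, while the Adamts1 and Adamts5 panel shows regions gathered at the 5′ ends.

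By median count, members as a set had more shared regions than the middle gene, but the Mmp genes did not. Counting shared regions in the gene body and 20 kb either side, 44 of 50 members had at least 1, or 88.0%, against 84.8% of all genes. The median was 9 per member, against 5 over all genes, and 5 against 2 when regions at any protein-coding promoter were left out. The Mmp medians were 5 and 2, equal to those of all genes. For the 13 Mmp genes outside the chromosome 9 cluster they were 8 and 3. Members were longer, with a median gene length of 25624.5 bases against 17433. Per 100 kb of the stretch counted, the medians were 9.12 for members and 6.74 for all genes. By group the medians per 100 kb were 21.6 for Adamtsl, 17.0 for Timp, 8.77 for Adamts and 8.35 for Mmp genes. In all, 500 distinct shared regions lay around members, 247 of them around Adamts, 120 around Mmp, 85 around Adamtsl and 48 around Timp genes. Of the 500, 45.8% lay in introns, against 32.6% of all shared regions, and 18.4% between genes, against 36.5%. The stretches counted are centred on genes, which favours introns.

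Adamts2 had the most shared regions, 38, followed by Adamts17 with 31 and Adamtsl1 with 23. These counts rise with gene length. Per 100 kb Adamts2 had 15.5, Adamts17 had 8.77 and Adamtsl1, at 914214 bases, had 2.41, against a median of 6.74 over all genes. Of the Adamts2 regions 36 lay away from any promoter, the strongest of them at 8.13 in replicate 1 and 5.90 in replicate 2, above the gene's own promoter at 5.67 and 5.20. By density Mmp14, with 17 regions or 31.6 per 100 kb, and Adamtsl4, with 16 or 30.9, were close to each other. Of these, 6 at Mmp14 and 12 at Adamtsl4 lay outside any promoter. Timp2 and Timp3 had 19 regions each. The 6 members with none were Mmp10, Mmp12, Mmp1b, Mmp20, Mmp3 and Mmp21. Regions seen in 1 replicate alone were mostly weak. The strongest, around Mmp17 in replicate 1 alone, had 4.18. Around Adamtsl1 there were 22 in replicate 1 alone with a median of 0.333 and 13 in replicate 2 alone with a median of 0.251. Around Adamtsl4 there were 22 in replicate 2 alone, with a median of 0.358, against 4 in replicate 1 alone, with a median of 1.06.

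**Figure D5:**
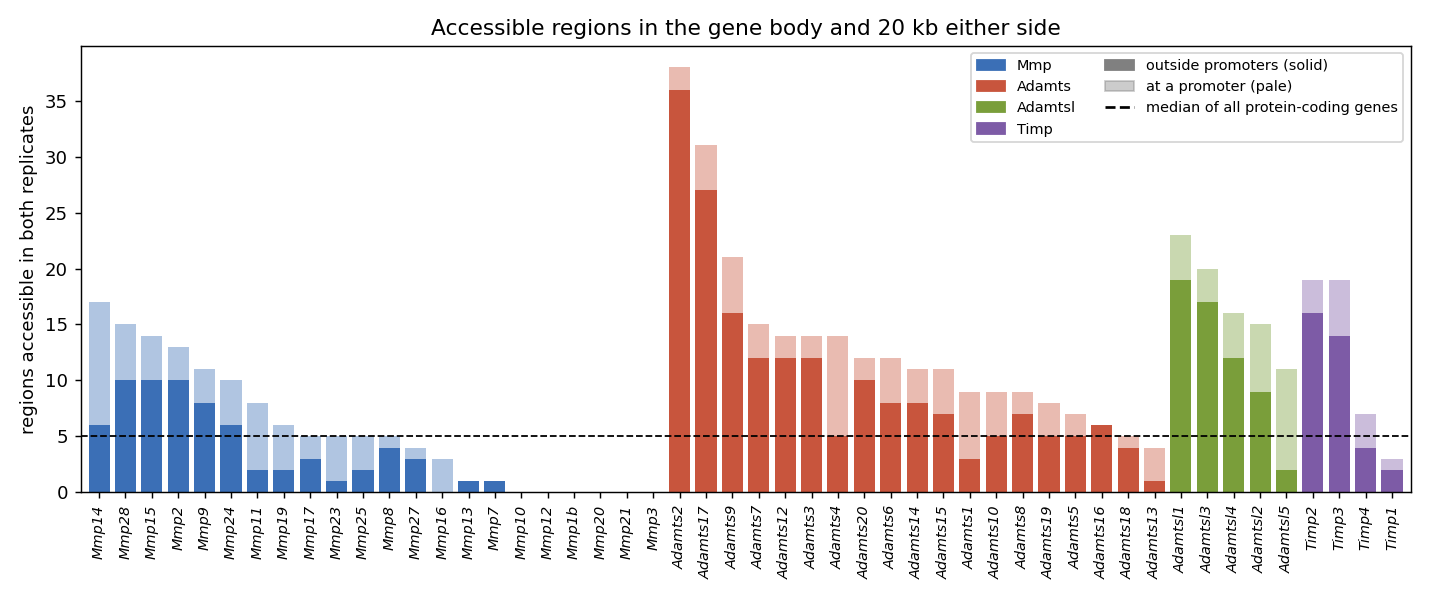
Number of shared regions in the gene body and 20 kb either side (y axis) for each member, split into regions outside promoters (solid) and at any protein-coding promoter (pale). The dashed line is the median of 5 over all genes, and Adamts2 with 38 and Adamts17 with 31 stand highest.

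The strongest regions outside promoters lay at the gelatinase genes, Adamts9 and Timp3. For Mmp2, a region 8920 bases upstream of the 5′ end had 10.6 in replicate 1 and 9.55 in replicate 2, at percentile 95.4 of all shared regions. A second, in an Mmp2 intron 23120 bases downstream of the 5′ end, had 9.77 and 7.35. Both were above the Mmp2 promoter, at 3.36 and 2.67, in each replicate. Mmp9 had a region 16109 bases upstream with 8.70 and 5.88. These were above its peak near an internal start, at 4.37 and 4.14, as its 5′ end had no peak. An Adamts9 intron region had 10.7 and 8.29, and a Timp3 intron region, which also lies within Syn3, had 8.39 and 6.86. A region near a gene need not act on that gene. The reference sequences of these 5 regions are given with the bases that lay in footprints of both replicates in capitals.
Mmp2 upstream region, chr8:92818281-92818460, plus strand: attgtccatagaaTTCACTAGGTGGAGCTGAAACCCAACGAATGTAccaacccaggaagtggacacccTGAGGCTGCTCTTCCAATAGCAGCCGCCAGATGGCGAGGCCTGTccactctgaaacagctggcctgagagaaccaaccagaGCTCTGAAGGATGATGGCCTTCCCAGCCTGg
Adamts9 intron region, chr6:92787441-92787600, plus strand: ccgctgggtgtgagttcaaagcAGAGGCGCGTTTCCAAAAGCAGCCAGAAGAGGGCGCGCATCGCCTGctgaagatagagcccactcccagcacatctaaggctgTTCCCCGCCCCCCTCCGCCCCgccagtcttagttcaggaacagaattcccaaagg
Mmp2 intron region, chr8:92850281-92850540, plus strand: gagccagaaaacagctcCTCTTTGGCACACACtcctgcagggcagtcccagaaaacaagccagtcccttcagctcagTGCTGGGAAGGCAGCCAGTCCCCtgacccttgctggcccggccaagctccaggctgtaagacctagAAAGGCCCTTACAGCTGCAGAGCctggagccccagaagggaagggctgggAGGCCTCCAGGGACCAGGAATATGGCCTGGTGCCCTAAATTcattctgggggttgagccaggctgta
Timp3 intron region, chr10:86339721-86339940, plus strand: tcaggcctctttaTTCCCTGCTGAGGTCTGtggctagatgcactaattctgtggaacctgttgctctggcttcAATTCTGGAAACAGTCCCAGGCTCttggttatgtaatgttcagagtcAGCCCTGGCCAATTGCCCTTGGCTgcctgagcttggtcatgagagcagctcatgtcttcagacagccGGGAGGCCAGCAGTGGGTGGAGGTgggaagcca
Mmp9 upstream region, chr2:164924581-164924760, plus strand: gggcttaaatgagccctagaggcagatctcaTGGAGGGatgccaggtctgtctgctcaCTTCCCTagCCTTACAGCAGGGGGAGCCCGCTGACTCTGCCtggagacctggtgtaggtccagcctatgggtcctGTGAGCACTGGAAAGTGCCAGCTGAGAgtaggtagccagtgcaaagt
On reading these sequences, a core of the motif of CTCF, the protein that bounds chromatin loops, was searched as CCNNNAGNNGGC on both strands. It was found overlapping a footprint of both replicates in the Mmp2 upstream region and the Adamts9 intron region, and not in the other 3. The strongest Adamts2 intron region had it too. Of the 14 member regions outside promoters in the upper 10% of signal, 4 had such a match (28.6%), against 39.8% of all such regions. Over all regions outside promoters the shares were 9.74% of 349 member regions and 13.6% of all.

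A footprint found in both replicates lay in the promoter windows of 37 of 50 members, or 74.0%, against 65.1% of all genes. This held for 5 of 5 Adamtsl, 4 of 4 Timp, 16 of 19 Adamts and 12 of 22 Mmp genes. The median number of promoter footprints was 8 in each replicate for members, against 5 in replicate 1 and 6 in replicate 2 for all genes. By group the medians in replicates 1 and 2 were 14 and 17 for Adamtsl, 10 and 11 for Adamts, 6.5 and 7 for Timp and 2 and 3 for Mmp genes, so Timp stood below Adamts here. Outside the chromosome 9 cluster the 13 Mmp genes had medians of 7 and 6. Adamtsl2 had 21 and 17, Timp3 had 20 in each and Adamts1 had 17 and 20. In member promoters an SP match lay within 10 bases of 15.4% of 369 footprints in replicate 1 and 14.2% of 409 in replicate 2, against 17.7% and 17.4% in all promoters. AP-1 matches accompanied 2 footprints in each replicate, or 0.542% and 0.489%, against 0.326% and 0.299% in all promoters. With 2 footprints the exact 95% interval for replicate 1 runs from 0.0657% to 1.94%, which covers counting error only. Among those found in both replicates, 1 was at Mmp19, 13 bases before a start, and another at Adamts1, 691 bases past a start.

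Genes that work with these proteases were set beside the 68.8% of all genes that were open. Of 11 activators and other proteases 10 were open, the exception being Plg, the precursor of plasmin. Adam10 had 21.9 and 20.5 and Adam17, a sheddase blocked by Timp3, had 16.6 and 14.8, both above any member. Furin, which removes the propeptide of membrane-type Mmp proteins and many Adamts proteins, had 4.96 and 7.52. All 10 other inhibitors and surface partners were open. Their median percentile of promoter signal was 43.0 in replicate 1 and 42.2 in replicate 2, below the middle gene. Bsg, a surface glycoprotein known to induce Mmp genes, had 21.8 and 18.6. Reck, a membrane-anchored Mmp inhibitor, had 6.65 and 6.21. A2m, a broad protease inhibitor of plasma, had 0.277 and 0.304. All 12 substrate genes were open, among them Fn1 (fibronectin) at 11.3 and 8.66, Eln (elastin) at 10.3 and 8.31 and Vcan (versican) at 6.18 and 5.09. The lowest substrate gene was Acan (aggrecan), and among the proteases Ctsk (cathepsin K) had 0.404 and 0.430.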

How the data were processed

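DNase-seq of heart tissue was described from lists that the authors deposited for each of 2 biological replicates on mm10. Each list was made per replicate from its own filtered alignment, with no pooling, per the deposited read-me files. The authors' peak signal is scaled by read depth in a way that is not stated. The deposited false discovery rates (q-values) list only bases under 0.05. A score-like column of the footprints, 0.01 in every line, went unused. Not given in the sources used here are the peak callers, their versions and how CAST reads were handled on the C57BL/6J reference.

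Genes and starts came from GENCODE M21, joined by symbol, and sequences from RefSeq GRCm38.p6. A peak overlapped a window by at least 1 base. Overlapping or touching peaks of the replicates were merged, and regions with a peak in each were called shared. Means and SDs are over 2 replicates. With 1 group and no contrast no test was run. Whole tables were used for percentiles. The members, gene lists and named genes were chosen with earlier results of these data known. The text names the 3 members of each group with the highest promoters, the 3 with the most regions, members open in 1 replicate alone, all cluster members, 14 set genes and the 5 strongest distal regions. The promoter value of 1 set gene, Adamts4, is not reported here. Any further gene was named with its values in view. Alternatives changed the peak set, windows, starts, flanks, overlap, false discovery rate and replicates. Overlap and motif counts were checked on simulated data. Python 3.11.15, numpy 2.4.6, scipy 1.17.1 and matplotlib 3.10.9 were used.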

Additional observations from a re-analysis of the deposited data

How the results depend on the processing

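The count of open members stayed within 1.5 times the reported one in every alternative run and for each group. The exception was the chromosome 9 Mmp cluster, whose 1 open gene became 0 in the smaller peak set, in the upper 50% of peaks and with bases under a false discovery rate of 0.001. For all members, Adamts, Adamtsl and Timp too few genes were closed for a rise past 1.5 times, so only losses could pass that limit. The upper 50% of peaks kept 35 of the 39 open members and lost Mmp8, Mmp25, Adamts18 and Timp1. The smaller set lost Mmp19 and Mmp8, windows of 500 bases lost Mmp9, windows of 2 kb gained Adamts16, the 5′ end alone lost Adamts20 and Mmp9, and peaks at 1 gene alone lost Adamts4, Mmp11 and Timp4. Under the last 2 settings, 64.2% and 58.6% of all genes were open. The median promoter percentile moved to 47.6 for all members, 49.97 for Adamts and 61.2 for Adamtsl in windows of 500 bases. In windows of 2 kb it was 47.8 for all members, 35.0 for Mmp, 55.1 for Adamts and 61.9 for Adamtsl. At the 5′ end alone it was 50.9 for all members, 39.0 for Mmp, 52.8 for Adamts, 59.7 for Adamtsl and 57.4 for Timp. With peaks at the promoter of 1 gene it was 58.8 for all members, 44.9 for Mmp, 62.5 for Adamts, 70.0 for Adamtsl and 58.7 for Timp. By construction, shared regions fell with no flank to 317 for all members, 53 for Mmp, 54 for Adamtsl, 26 for Timp and 2 for the chromosome 9 cluster, which had 8 with the flank of 20 kb. The cluster had 4 with a flank of 10 kb, in the smaller set and in the upper 50% of peaks. A flank of 50 kb gave 193 for Mmp and 73 for Timp. The smaller set gave 54 for Adamtsl. The upper 50% gave 333 for all members, 156 for Adamts and 52 for Adamtsl. Leaving out promoter regions gave 67 for Mmp. The median number of footprints around a member was 14 with no flank and 52 with 50 kb. Without extension, 6.44% of member promoter footprints held an SP match, 0% an AP-1, 0.393% an ETS and 0.122% a TEAD match. Windows of 500 bases also lowered the mean promoter signal of Adamts6 to 0.646, Adamts5 to 0.908 and Adamtsl3 to 2.39, and windows of 2 kb raised that of Adamts8 to 5.27. Leaving out either replicate moved no count by over 1.5 times. With 2 replicates this cannot test a single member's promoter signal, and the 1 call it changes is that of Mmp21, open in replicate 1 alone. Joining members within 50 kb gave 3 clusters of 10 members in place of 4 of 15: Mmp13 stood apart, Mmp12 and Mmp1b were a pair of their own, and the pairs of Adamts1 with Adamts5 and Adamts13 with Adamtsl2 were no longer clusters, and joining within 200 kb gave the same 4. No paired analysis was possible because there is 1 group. With read totals unknown, a member listed without a peak may still be open below what these lists hold.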
